A study of Arabidopsis thaliana with 6 samples.

Results

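The 35 aquaporin genes of Arabidopsis were described in *an3*, a line that has lost the function of *ANGUSTIFOLIA 3*, and in its wild type Columbia (Col). The members were taken by locus as the whole family, so that no gene was kept or dropped by its value. The choice was nevertheless made with earlier results of these data known. The members comprise 13 plasma membrane intrinsic proteins (PIP), 10 tonoplast intrinsic proteins (TIP), 9 nodulin 26-like intrinsic proteins (NIP) and 3 small basic intrinsic proteins (SIP). All 35 had a row of their own among the 33201 rows of the deposited table. AN3 (GIF1) acts as a co-activator of GRF transcription factors. No allele name of *an3* was found in the labels or methods. The 3 *an3* samples and the 3 Col samples were each root tips of about 5 mm from seedlings grown for 5 days, a piece that holds the meristem and the young differentiating tissue behind it. The table gives 1 FPKM value per genotype (fragments per kilobase of transcript, scaled to the number of mapped reads), which stands for the 3 samples together. There were thus no values of single samples, no spread between replicates and no read counts, so no difference below could be tested, no value carries an error, and the depth of the samples is unknown.

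Aquaporins are membrane channels that let water, and in some members small uncharged solutes, cross a membrane along its gradient. PIPs lie mostly in the plasma membrane, TIPs in the membrane of the vacuole, and SIPs in the endoplasmic reticulum, whereas NIPs are known for carrying boric acid, arsenite and other small solutes. In roots they set much of the ease with which water passes from cell to cell, and the large vacuole of an elongating cell takes up water through them.

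The pore of an aquaporin is lined by a pair of short loops that carry the residues asparagine, proline and alanine, the NPA box. The first such box of 6 members is shown, chosen so that each subfamily is represented. They include the most abundant member (*TIP1;1*), the 3 members past 1.5-fold, the PIP with the largest ratio (*PIP2;3*) and an abundant PIP2 gene. The bases are read 5′ to 3′ along the coding strand of the RefSeq gene models of TAIR10.1, and the 9 bases of the box are in capitals. The genes lie on chromosome 2 (*TIP1;1* and *PIP2;3*, plus strand), chromosome 1 (*NIP3;1*, plus strand), chromosome 3 (*PIP2;1*, minus strand) and chromosome 5 (the other two, minus strand).

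TIP1;1: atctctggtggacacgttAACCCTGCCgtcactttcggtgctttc

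TIP2;3: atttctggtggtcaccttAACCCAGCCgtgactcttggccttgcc

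PIP2;1: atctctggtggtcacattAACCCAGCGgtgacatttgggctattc

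PIP2;3: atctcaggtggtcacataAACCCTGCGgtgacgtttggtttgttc

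NIP3;1: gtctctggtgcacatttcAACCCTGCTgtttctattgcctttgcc

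SIP1;2: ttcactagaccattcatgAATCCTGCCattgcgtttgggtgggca

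Counted over the coding sequences, all 13 PIPs and all 10 TIPs held 2 in-frame NPA boxes. Of the NIPs, 4 held 2 boxes, 4 held 1, and the boric acid channel gene *NIP5;1* held none with this spelling. Each of the 3 SIPs held 1. In *SIP1;2* the printed bases start at coding base 544, against 229 to 301 in the other 5 genes shown. Its only box opens at codon 188, closer to the second box of those 5 (codons 197 to 228) than to their first (codons 83 to 107). The bases printed for *SIP1;2* are thus placed like a second box.

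As a check of the labels, *AN3* itself had 2.55 FPKM in *an3* and 21.5 FPKM in Col, so that 11.9% of the Col level remained. Of 5 markers of root tip identity, *SCR* had 21.2 FPKM in *an3* and 25.1 FPKM in Col. *SMB*, a root cap regulator, had 11.2 FPKM in *an3* and 10.1 FPKM in Col. *SHR* had 9.06 FPKM in *an3* and 9.71 FPKM in Col. The other markers gave little signal, with *PLT1* at 1.47 FPKM in *an3* and 0.94 FPKM in Col, and *PLT2* at 1.41 FPKM in *an3* and 1.52 FPKM in Col. A row was counted as measured when its FPKM averaged at least 1 over both genotypes, which held for 17229 rows and for 26 of the aquaporins. Ratios are given as log2 of *an3* over Col after 0.1 FPKM was added to each value, which understates the difference of genes with low values. The median over all measured rows was -0.0034.

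Aquaporins were among the most abundant transcripts of the root tip. Their FPKM values summed to 30156 in *an3* and to 25252 in Col, which is 3.47% of the whole *an3* column and 3.03% of the whole Col column. PIPs and TIPs made up nearly all of it. The PIPs held 48.7% of the family's FPKM in *an3* and 49.8% in Col, and the TIPs held 48.5% in *an3* and 46.8% in Col. A member's rank among all 33201 rows was as high as 2 in both genotypes (*TIP1;1*) and 3 in both genotypes (*TIP1;2*). FPKM is a value per length of transcript, so these levels may be set beside each other, but it is not a count of molecules per cell. In tissue sampled whole, more cells of a type and more RNA per cell cannot be told apart.

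**Figure D1:**
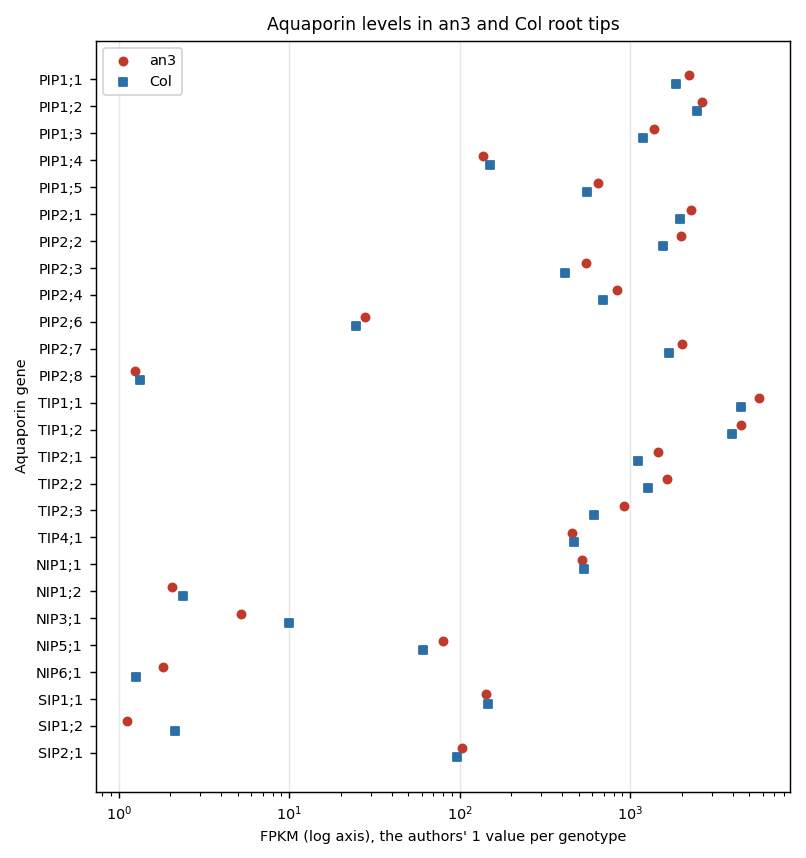
FPKM of the 26 measured aquaporin genes (log axis), with *an3* as red circles above Col as blue squares, 1 value per genotype and no error. The levels run over more than 3 decades, with *TIP1;1* highest at 5680 FPKM in *an3* and 4448 FPKM in Col.

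Most of the abundant members had a higher value in *an3*, by small amounts. Of the 26 measured members, 18 had a ratio over 0, against 49.4% of all measured rows, and the median log2 ratio of the members was 0.20. Of the 18 members that averaged 100 FPKM or more, 14 had a ratio over 0, against 63.7% of all rows at that level. All 10 members that averaged 1000 FPKM or more were higher in *an3*, against 69.5% of the 82 rows at that level. These shares include the aquaporins themselves. Without them, the 72 other rows of at least 1000 FPKM had a median log2 ratio of 0.065 and a range from -0.25 at the 5th to 0.49 at the 95th percentile. The 10 aquaporins of that level had a median of 0.26 and lay between 0.08 and 0.40, inside that range. In the deposited values, abundant rows as a whole were thus shifted towards *an3*. The median of the aquaporins over 1000 FPKM was further over 0, but no single aquaporin at that level lay outside the spread of the other rows. The shift of the abundant rows depends on the scaling. Dividing each column by its sum, which is larger in *an3*, lowered the ratios and took the median of all measured rows from -0.0034 to -0.063. Between 100 and 1000 FPKM the members lay close to the other rows: 4 of 8 had a ratio over 0, against 63.5% of the 1560 other rows there, and the median was 0.09 for the members and 0.06 for the other rows. In this band *TIP2;3* at 0.60 and *PIP2;3* at 0.41 lay above 0.39, the 95th percentile of the other rows, and the lowest member was at -0.13.

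**Figure D2:**
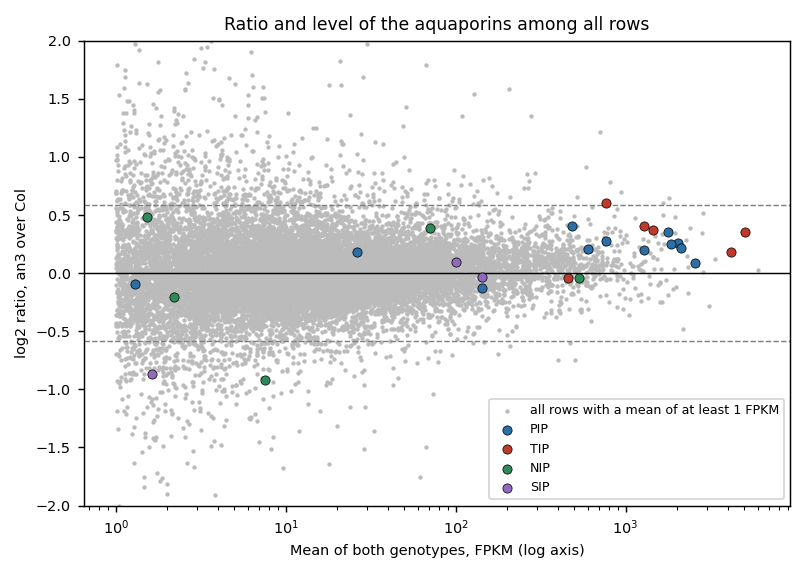
Log2 ratio of *an3* over Col against the mean FPKM of both genotypes (log axis) for all measured rows (grey) and the aquaporins (coloured by subfamily), with dashed lines at 1.5-fold. A further 52 rows with a log2 ratio past 2 in either direction lie outside the axis. Most PIPs and TIPs sit at the right, mostly between 0 and 0.60, while 2 members at lower levels lie under the lower line.

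Few members differed by 1.5-fold or more. *TIP2;3* was at least 1.5-fold higher in *an3*, 1 of the 26 measured members, against 3.89% of all measured rows. Only *NIP3;1* and *SIP1;2* were at least 1.5-fold lower, 2 of 26, against 3.06% of all measured rows. Both averaged between 1 and 10 FPKM, where 5.44% of the 7560 other rows were lower and 6.44% higher by 1.5-fold. With numbers this small, neither count sets the family apart from the table. At the lesser limit of 25% higher, the count was 8 of 26 members, against 11.4% of all measured rows. Of the 26 members, 18 averaged at least 100 FPKM, where 63.7% of all rows had a ratio over 0. The 11.4% covers rows of all levels, so this comparison is not one of like level. *TIP2;3* itself, at 1.52-fold, lay just inside the limit and was no longer past it when the columns were divided by their sums, and the next ratio below it was that of *NIP6;1*, a gene with under 2 FPKM in both genotypes.

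**Figure D3:**
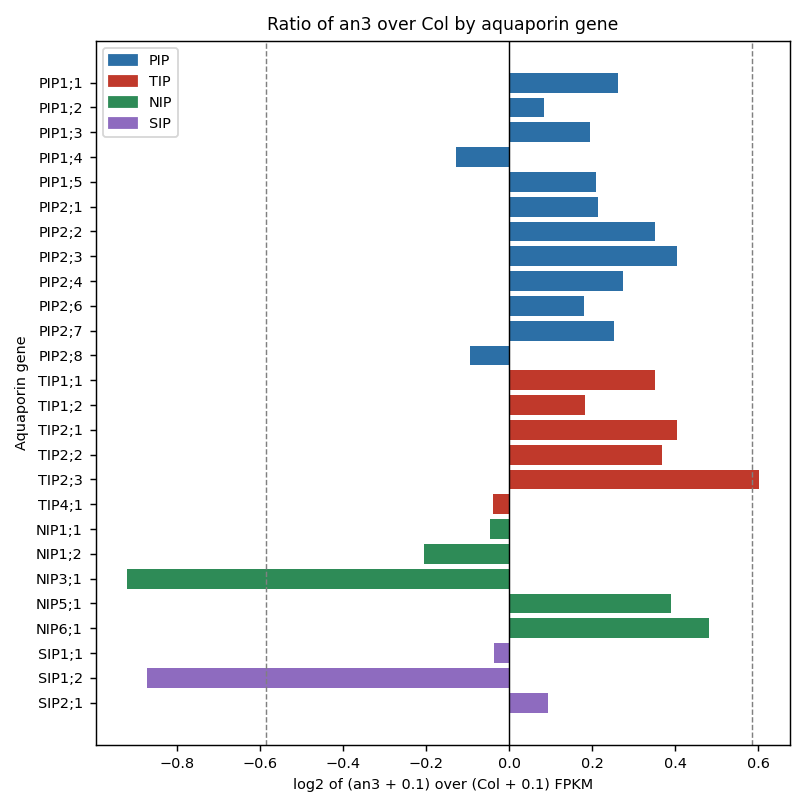
Log2 ratio of *an3* over Col for the 26 measured aquaporins, coloured by subfamily, with dashed lines at 1.5-fold. The bars of most PIPs and TIPs point towards *an3* and stay inside the dashed lines, apart from that of *TIP2;3* at 0.60, and the bars of *NIP3;1* at -0.92 and *SIP1;2* at -0.87 pass the line on the other side.

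The TIPs had the larger difference of the subfamilies. Their summed FPKM was 14619 in *an3* and 11829 in Col, a log2 ratio of 0.31, and 5 of the 6 measured members had a higher value in *an3*. All 6 averaged at least 100 FPKM, where 63.7% of all rows had a ratio over 0. *TIP1;1* (AT2G36830), the gamma-TIP of vacuoles in growing vegetative cells, had 5680 FPKM in *an3* and 4448 FPKM in Col (log2 ratio 0.35). This gene alone accounted for 25.1% of the difference in summed FPKM between the genotypes over the whole family. Its close relative *TIP1;2* (AT3G26520) had 4464 FPKM in *an3* and 3933 FPKM in Col (log2 ratio 0.18).

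The TIP2 genes, which in heterologous systems carry ammonia as well as water, were the group with the largest shift. Their summed FPKM was 4023 in *an3* and 2981 in Col, or 1.35-fold higher in *an3*, and all 3 genes were higher. *TIP2;1* (AT3G16240), the delta-TIP, had 1460 FPKM in *an3* and 1104 FPKM in Col (log2 ratio 0.40). *TIP2;2* (AT4G17340) had 1638 FPKM in *an3* and 1268 FPKM in Col (log2 ratio 0.37). *TIP2;3* (AT5G47450), the least abundant of this group, had 925 FPKM in *an3* and 609 FPKM in Col (log2 ratio 0.60), and its place among all rows was 101 in *an3* and 193 in Col. The measured TIP with a lower value in *an3* was *TIP4;1* (AT2G25810), a TIP of the root, with 453 FPKM in *an3* and 466 FPKM in Col (log2 ratio -0.04).

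The other TIPs are known from seeds and pollen and were at or near 0 in both genotypes. *TIP3;1*, a TIP of the protein storage vacuoles of seeds, and *TIP5;1*, known from pollen, were listed at 0 in both. The second seed gene, *TIP3;2* (AT1G17810), had 0.028 FPKM in *an3* and 0.12 FPKM in Col. *TIP1;3* (AT4G01470), known from pollen, had 0.28 FPKM in *an3* and 0.88 FPKM in Col. These defining genes of seed and pollen vacuoles thus gave almost no signal in the root tips.

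**Figure D4:**
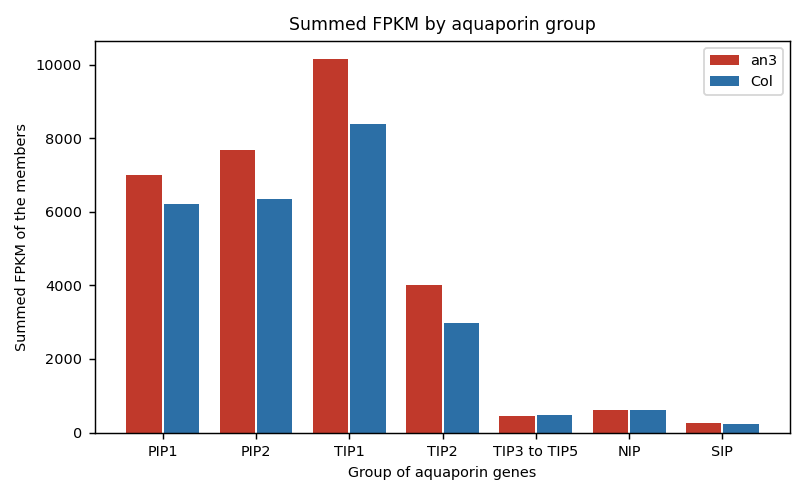
Summed FPKM of the members of each aquaporin group, with *an3* as the left bar and Col as the right bar of each pair, on a linear axis from 0 and with no error. The bars of the PIP1, PIP2, TIP1 and TIP2 groups are higher in *an3*, whereas those of the other TIPs, the NIPs and the SIPs are nearly level.

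The PIPs together had a log2 ratio of 0.22, with a summed FPKM of 14679 in *an3* and 12565 in Col. Of the 12 measured PIPs, 10 had a higher value in *an3* and none differed by 1.5-fold. Most of the 12 averaged at least 100 FPKM, a level at which 63.7% of all rows had a ratio over 0. The PIP2 proteins are the stronger water channels when expressed alone, and many PIP1 proteins reach the plasma membrane together with a PIP2 partner. The PIP2 genes had a summed FPKM of 7689 in *an3* and 6341 in Col (log2 ratio 0.28), and the PIP1 genes 6990 in *an3* and 6224 in Col (log2 ratio 0.17).

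Among the PIP2 genes, *PIP2;1* (AT3G53420), a main water channel of the root, had 2274 FPKM in *an3* and 1961 FPKM in Col (log2 ratio 0.21). *PIP2;7* (AT4G35100), another plasma membrane water channel, had 2008 FPKM in *an3* and 1685 FPKM in Col (log2 ratio 0.25). *PIP2;4* (AT5G60660), a channel gene with expression mainly in roots, had 836 FPKM in *an3* and 691 FPKM in Col (log2 ratio 0.27). Each of these was higher in *an3* by a similar factor, between 1.16 and 1.21. At a far lower level, *PIP2;6* (AT2G39010) had 27.9 FPKM in *an3* and 24.6 FPKM in Col (log2 ratio 0.18). *PIP2;8* (AT2G16850) had 1.2 FPKM in *an3* and 1.3 FPKM in Col (log2 ratio -0.09). *PIP2;5* (AT3G54820) had 0.54 FPKM in *an3* and 0.57 FPKM in Col, and was the PIP that did not reach the minimum.

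The largest ratios among the PIPs were those of a neighbouring pair of genes. *PIP2;2* (AT2G37170), a gene known for its part in the water conductance of root cells, had 1989 FPKM in *an3* and 1560 FPKM in Col (log2 ratio 0.35). *PIP2;3* (AT2G37180), also named *RD28*, had 552 FPKM in *an3* and 417 FPKM in Col (log2 ratio 0.41). No other annotated gene lies between them on chromosome 2, and they are the most alike of all pairs within a subfamily, with 94.8% identity over 858 aligned coding bases. This bears on their values, since reads of 100 bases that fit both genes have to be divided between them. Their coding sequences differ most in the following stretch of 100 bases, where capitals mark the 14 bases that differ.

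PIP2;2: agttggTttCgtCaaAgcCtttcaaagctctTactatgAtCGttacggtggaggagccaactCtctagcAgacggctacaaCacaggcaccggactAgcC

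PIP2;3: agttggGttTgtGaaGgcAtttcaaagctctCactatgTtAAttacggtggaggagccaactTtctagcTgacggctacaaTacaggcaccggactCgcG

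They are identical over a run of 242 bases that leads into this stretch and holds the first NPA box. It is shown because a read that lies wholly within it cannot be assigned to either gene.

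both genes: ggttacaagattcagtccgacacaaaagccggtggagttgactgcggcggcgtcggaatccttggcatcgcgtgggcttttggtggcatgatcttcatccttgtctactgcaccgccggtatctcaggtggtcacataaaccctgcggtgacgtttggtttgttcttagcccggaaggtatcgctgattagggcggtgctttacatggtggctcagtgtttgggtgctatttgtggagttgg

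Of all possible 100-base windows of their transcripts, 11.5% of those of *PIP2;2* and 12.8% of those of *PIP2;3* also occur in the other gene. These were the only aquaporins that shared such a window with another aquaporin. A further 4 members shared some with a gene outside the family, at most 17.7% (*TIP3;1*), and 29 shared none. How the authors' software divided shared reads between this pair is not known from the table.

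Among the PIP1 genes, *PIP1;2* (AT2G45960), known for its part in root water conductance, was the most abundant PIP and the one with the smallest shift among those over 1000 FPKM. It had 2621 FPKM in *an3* and 2473 FPKM in Col (log2 ratio 0.08). *PIP1;1* (AT3G61430) had 2213 FPKM in *an3* and 1844 FPKM in Col (log2 ratio 0.26). *PIP1;3* (AT1G01620) had 1370 FPKM in *an3* and 1196 FPKM in Col (log2 ratio 0.20). *PIP1;5* (AT4G23400) had 649 FPKM in *an3* and 561 FPKM in Col (log2 ratio 0.21). The exception was *PIP1;4* (AT4G00430), a channel gene linked to hydrogen peroxide transport in leaves, which had 137 FPKM in *an3* and 150 FPKM in Col (log2 ratio -0.13).

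The NIPs went in both directions. Their summed FPKM was 611 in *an3* and 613 in Col, and 2 of 5 measured members had a higher value in *an3*, against 49.4% of all measured rows. The sum was set by *NIP1;1* (AT4G19030), through which arsenite and antimonite are known to enter roots, with 521 FPKM in *an3* and 538 FPKM in Col (log2 ratio -0.05). Without this gene the summed FPKM of the NIPs had a log2 ratio of 0.25, but most of that remaining sum was *NIP5;1*. *NIP5;1* (AT4G10380), the channel for boric acid uptake by roots when boron is scarce, had 80.2 FPKM in *an3* and 61.2 FPKM in Col (log2 ratio 0.39). *NIP6;1* (AT1G80760), a boric acid channel known from shoot nodes, had 1.81 FPKM in *an3* and 1.27 FPKM in Col.

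*NIP3;1* (AT1G31885), linked to the uptake and movement of arsenite, had the lowest ratio of all measured members. It had 5.19 FPKM in *an3* and 9.91 FPKM in Col, so that its value was lower by 47.6% in *an3* (log2 ratio -0.92). Its place among all rows was 12421 in *an3* and 9710 in Col. *NIP1;2* (AT4G18910), a gene for uptake of the complex of aluminium and malate, had 2.04 FPKM in *an3* and 2.37 FPKM in Col. The remaining NIPs were under the minimum. *NIP2;1* (AT2G34390), known for its response to low oxygen, had 0.33 FPKM in *an3* and 0.30 FPKM in Col, and *NIP7;1*, known from anthers, was listed at 0 in *an3* and at 0.038 FPKM in Col. The pollen genes *NIP4;1* and *NIP4;2*, which lie side by side on chromosome 5, were listed at 0 in both genotypes.

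Of the SIPs, a pair of genes was abundant and level between the genotypes. *SIP1;1* (AT3G04090) had 142 FPKM in *an3* and 146 FPKM in Col (log2 ratio -0.04), and *SIP2;1* (AT3G56950) had 103 FPKM in *an3* and 96.7 FPKM in Col (log2 ratio 0.09). *SIP1;2* (AT5G18290) was much lower, with 1.12 FPKM in *an3* and 2.13 FPKM in Col (log2 ratio -0.87), a difference of about 1 FPKM at a level where 1 value per genotype says little.

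The order of the levels within the family was nearly the same in both genotypes. *TIP1;1*, *TIP1;2*, *PIP1;2*, *PIP2;1*, *PIP1;1*, *PIP2;7*, *PIP2;2* and *TIP2;2* took the first 8 places in this order in *an3* and in Col. Below them, neighbours changed places by at most 2 down to place 22, with *PIP2;3* at place 14 in *an3* and 16 in Col. Whether neighbours in this order differ beyond the spread of replicates is not known from values of 1 per genotype.

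Other genes of water and solute transport went in both directions. Of 6 measured genes for proton pumps of the plasma membrane and of inner membranes, none differed by 1.5-fold, all 6 had a ratio under 0 and the median was -0.21. For comparison, 49.4% of all measured rows and 63.7% of all rows of at least 100 FPKM had a ratio over 0. *AHA2*, the main proton pump gene of the root plasma membrane, had 728 FPKM in *an3* and 862 FPKM in Col, and the vacuolar pump gene *VHA-A3* had 258 FPKM in *an3* and 312 FPKM in Col. Of 5 measured regulators and partners of aquaporins, none was higher and 1 was lower by 1.5-fold, against 3.89% and 3.06% of all measured rows. The lower gene was *OST1*, a kinase of abscisic acid signalling, with 1.67 FPKM in *an3* and 3.35 FPKM in Col. *SYP121*, a syntaxin that brings PIPs to the plasma membrane, had 46.7 FPKM in *an3* and 43.3 FPKM in Col. Of 3 boron exporters, *BOR4* had 12.6 FPKM in *an3* and 5.82 FPKM in Col (log2 ratio 1.10), whereas *BOR1* and *BOR2* had ratios of -0.02 and -0.07.

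Markers of the tissues in the tip also differed between the genotypes, and their part in the aquaporin values was not tested. The shares with a ratio over 0 were 49.4% of all measured rows and 63.7% of all rows of at least 100 FPKM. Of 8 Casparian strip genes of the endodermis, 7 had a ratio over 0, with a median of 0.27 and a summed FPKM of 2774 in *an3* and 2237 in Col. All 9 root hair genes had a ratio under 0, with a median of -0.38 and a summed FPKM of 2121 in *an3* and 2489 in Col, and none of them was at 0. The root hair regulator *RHD6* was lower by 1.5-fold, with 15.9 FPKM in *an3* and 24.0 FPKM in Col. Of 5 markers of root tip identity, the stem cell regulator *PLT1* was past 1.5-fold, with 1.47 FPKM in *an3* and 0.94 FPKM in Col, at a level close to the minimum. The 5 listed genes of green shoot tissue were all lower by more than 1.5-fold, against 3.06% of all measured rows, with a median of -1.06. They lay between 1.67 and 11.4 FPKM in *an3* and between 3.55 and 28.6 FPKM in Col. Photosystem genes outside this list varied in size of difference. *PSBS* (AT1G44575) had a log2 ratio of -0.53 and *PSAK* (AT1G30380) of -0.41, both inside 1.5-fold. *PSAH2* (AT1G52230), at a mean of 1.02 FPKM, was at -2.89. Of 7 clock genes, *CCA1*, *LHY*, *PRR9* and *RVE1* were lower by more than 1.5-fold and *PRR7*, *ELF4* and *FKF1* higher, with log2 ratios from -2.40 (*CCA1*) to 1.05 (*FKF1*). Of all measured rows, 3.06% were lower and 3.89% higher by 1.5-fold. The 7 are not the whole clock, and the list was chosen with earlier results of these data known. A clock gene outside it, *GI* (AT1G22770), averaged 18.6 FPKM and had a log2 ratio of -0.02.

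Motifs bound by clock and light regulators were looked for in the RefSeq promoters of the aquaporins. In windows of 250 bases before and 50 after the annotated start, the evening element AAAATATCT was found on either strand in 0 of 35 members, against 2.82% of 27443 promoters. The CCA1-binding site AAAAATCT was found in 1 of 35, *PIP2;3*, against 7.88% of promoters, and the G-box CACGTG in 1 of 35, *TIP3;2*, against 7.68%. Both strands were read, and a match is no more than these letters within the window.

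**Figure D5:**
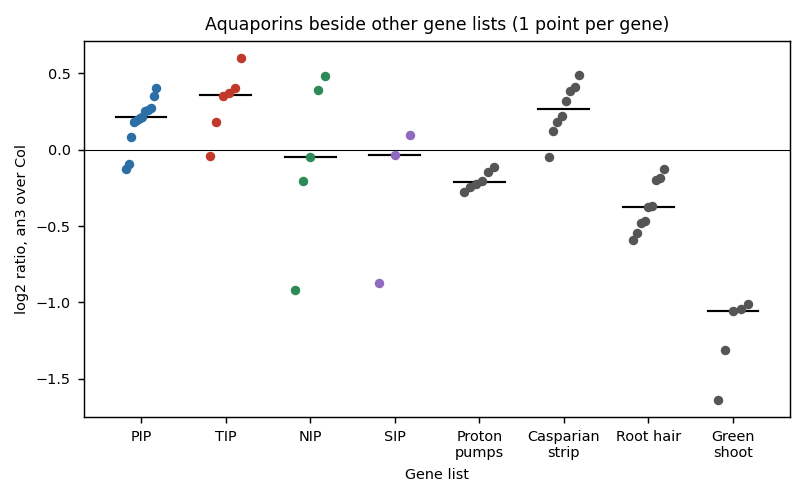
Log2 ratio of *an3* over Col for the measured members of each aquaporin subfamily and of 4 other lists, 1 point per gene, with a line at each median. The points of the PIPs and TIPs lie mostly over 0, as do the Casparian strip genes, whereas all points of the proton pumps, the root hair genes and the green shoot genes lie under 0.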

How the data were processed

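RNA of 3 *an3* and 3 Col samples of root tips was sequenced by the authors (single-end, 100 bp). TuxNet was the authors' pipeline, with fastq-mcf for trimming, HISAT2 for alignment and Cufflinks for quantification. The deposited FPKM values are the authors' estimates, 1 per genotype for 3 samples together. Not given in the sources used here were tool versions, genome build, annotation and strand setting. The deposited table also holds the authors' own log2 fold changes and q-values, which were not used. The FPKM columns sum to 869161 for *an3* and 833287 for Col. The depth per sample is unknown, and with no values per sample no test was made and a difference is read by its size alone.

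Computed here (Biopython 1.88, numpy 2.4.6, pandas 2.3.3, matplotlib 3.10.9, under Python 3.11.15) were log2 ratios with a pseudocount of 0.1 FPKM, counts of members past 1.5-fold with a mean of at least 1 FPKM, sums by subfamily and the same shares over all rows. The counting was tested on simulated data. The members and lists were chosen with earlier results of these data known. By rule, values are given for members with at least 5 FPKM in either genotype or past 1.5-fold, and others were added after their values were seen. Of the other lists, genes past 1.5-fold and up to 2 others were named, except that all 5 root tip identity markers are given. Gene models and sequences came from RefSeq TAIR10.1, matched by locus for all 35 members, using the transcript with the longest coding sequence. Identity was counted after global alignment. No genome coordinates are given, as the authors' build was not stated. Names of the members follow the usual family nomenclature. Alternatives were other pseudocounts, minimum levels, fold limits and scalings. One gene of the transport list is not reported here.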

Additional observations from a re-analysis of the deposited data

How the results depend on the processing

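No paired analysis was possible because the table holds 1 value per genotype, and for the same reason no replicate could be left out. With no spread known, a value was counted as moved when it shifted by more than 1.5-fold. By this limit the sums of each subfamily, the family's median and the ratios of the 23 members with 5 FPKM or past 1.5-fold did not move under any alternative run. None of these 23 ratios changed sign. The limit, 0.585 in log2, was larger than the family's median, every subfamily sum and most of the 23 ratios. Such values could have fallen to 0 without being counted as moved, so the limit says little about small differences. The median lay between 0.14 and 0.21. The sums of the NIPs and SIPs lay close to 0 and changed sign between alternatives (for SIPs 0.01 as deposited and -0.05 with columns divided by their sums). The counts past 1.5-fold were less stable. The count of lower members, 2 as reported, was 1 with a pseudocount of 1 FPKM, 1 with a mean of at least 5 FPKM, 4 with no minimum and 0 at 2-fold. The count of higher members, 1 as reported, was 0 with columns divided by their sums, 0 with the median of rows of at least 100 FPKM set to 0, 8 at 25% higher and 0 at 2-fold. *TIP2;3* is the member lost by scaling. Of the members of at least 100 FPKM, 14 had a ratio over 0 in each of the 3 scalings. This count and the scaling by abundant rows were chosen after the data were examined. Dividing the columns by their sums moved the median of all rows by less than 0.1, to -0.063.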
